A study of Drosophila melanogaster with 12 samples.

Results

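The spindle kinesins described here are 10 motor protein genes of *Drosophila melanogaster*, grouped as motors of the microtubule spindles of mitosis and meiosis: *ncd*, *nod*, *sub*, *Klp61F*, *Klp10A*, *Klp67A*, *Klp3A*, *Klp31E*, *cmet* and *cana*. They were chosen by name, by a rule that uses no measured value, but with earlier results of these data known. All 10 were found among the 17737 genes of the RIP-seq count table. Kinesins hydrolyze ATP to walk along microtubules or to take them apart at their ends. A spindle needs motors that push its poles apart, motors that draw microtubule ends together, motors that set microtubule length, and motors that hold chromosomes. The *Drosophila* oocyte builds its meiotic spindle without centrosomes, and *ncd*, *nod* and *sub* are known from mutant females whose chromosomes segregate wrongly in meiosis.

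RIP-seq, in which RNA bound to a tagged protein is pulled down and sequenced, compared 3 immunoprecipitations from ovaries of the strain Bam-fTRG-GFP with 3 from ovaries of the strain Bam-Gal4 ::UASp-GFP. In the first strain, called Bam-GFP, a fosmid transgene adds a GFP-tagged copy of Bam, the factor that starts differentiation of germline stem cell daughters. In the second strain, called GFP control, *bam*-Gal4 drives GFP alone in the cells where that driver is active, and RNA on its beads measures what binds GFP or the beads alone. Both strains otherwise lack a labelled mutation, whole ovaries were lysed, the age of the flies is not given in the sources used here, and no input RNA was analysed here. More of a transcript in the ovaries of one strain and more of it bound there therefore cannot be told apart. For RNA-seq, germ cells were sorted from the ovaries of vas-GFP; bam_delta86/bam_delta86 flies (*bam*-/-, 3 samples), which lack nearly all of the *bam* gene, and of vas-GFP flies (3 samples). Both genotypes of that experiment carry the Vasa-GFP fusion by which the cells were sorted. No label says that the libraries of a group came from separate cultures or crosses, so that the spread between these libraries may be technical. The p-values and standard errors rest on that spread as shared nearly wholly between genes, and not on the spread of each gene alone.

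The RIP-seq libraries held between 7697440 and 12704088 counts on genes. A further 51532206 to 85497154 alignments per library were to several places and were not counted. A read can appear among these alignments more than once, so that they are not a number of reads. The members took between 0.201% and 0.331% of the counts on genes. The lowest count of any member in any library was 199, so that none was lost to a filter on low counts. Germline markers were present in all libraries, with a summed level of 4431 to 6589 CPM (counts scaled to a common library total) with Bam-GFP and 3654 to 4975 CPM in the GFP control. Of these 7 markers, *osk* alone was called (log2 fold change 1.26, edgeR adjusted p = 0.00689), 4 were negative and the median log2 fold change was −0.03. Of 8 follicle cell markers, which belong to the somatic layer around the germline cyst, 7 had a positive log2 fold change and 5 passed an adjusted p of 0.05 in edgeR, and their summed level was 4872 to 12717 CPM with Bam-GFP against 2091 to 3391 CPM in the GFP control. Of the 6335 genes that, like all of these markers, had 10 counts or more per library, 3.2% passed that threshold in either direction. A positive log2 fold change was found in 47.1% of them. Muscle sheath markers summed to 34.0 to 89.1 CPM with Bam-GFP and 75.3 to 112.9 CPM in the GFP control. Testis markers reached at most 2.34 CPM, and 2 of the 4, *can* and *Mst87F*, had no count in any library. The part of these other cell types in the values below was not tested, and in bulk lysates fewer cells of a type and less RNA per cell cannot be told apart.

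None of the 10 spindle kinesin transcripts differed between Bam-GFP and the GFP control when edgeR's adjusted p had to be under 0.05. Of all 10971 genes tested, 2.2% passed that threshold in either direction, and of the 6335 genes that, like every member, had 10 counts or more per library, 3.2% did. DESeq2 and limma called none of the 10 either, against 408 and 233 of all 10971 genes. However, *cmet* lay just over the threshold in DESeq2 (DESeq2 adjusted p = 0.0543, limma adjusted p = 0.169). At an unadjusted p under 0.05, 1 member was higher with Bam-GFP and none was lower, against 5.54% and 4.03% of all genes (8.19% and 5.56% of the 6335). The count of members at this level was 3 in DESeq2 and 1 in limma. Of all 10971 genes, 736 were higher and 517 lower at this level in DESeq2, and 706 and 566 in limma. A positive log2 fold change was found in 4 of the 10 members and in 47.8% of all genes (47.1% of the 6335), and the count of such members ran from 3 to 7 over the 17 alternatives. The median log2 fold change was −0.01 over the members and −0.05 over all genes. No member had every Bam-GFP library above every control library or below it, where 6.4% of all genes lay above and 7.24% below (8.51% and 9.76% of the 6335). The members ranged from −0.85 for *sub* to 0.81 for *cmet*.

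**Figure D1:**
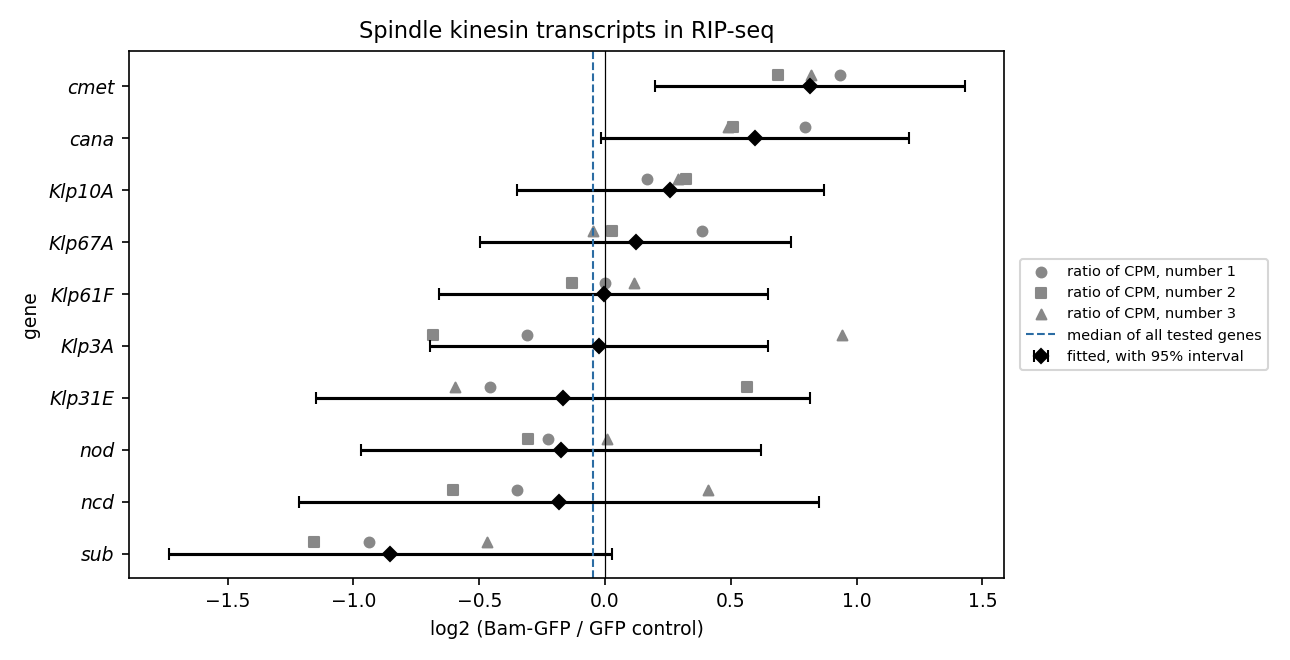
Log2 fold change of each spindle kinesin transcript between Bam-GFP and the GFP control in RIP-seq. Black diamonds are fitted values from edgeR with 95% intervals, and the dashed line is the median of all tested genes at −0.05. Grey symbols are the ratios of CPM between libraries of the same number, which are not shown to be pairs. The interval of *cmet*, from 0.20 to 1.43, is the one that lies wholly on one side of 0.

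The highest values belonged to *cmet* and *cana*, which encode the fly homologs of CENP-E, a long motor that links kinetochores to microtubules and carries chromosomes to the spindle equator. Both genes lie next to each other on chromosome 2L, *cmet* (FBgn0040232) from 11261026 to 11269002 and *cana* (FBgn0040233) from 11269780 to 11277846 in the Release 6 assembly, with 777 bases and no other annotated gene between them. *cmet* had 1239, 540.3 and 1332 CPM in Bam-GFP libraries 1, 2 and 3, and 647.4, 335.2 and 754.8 CPM in GFP control libraries 1, 2 and 3. The groups overlapped, because Bam-GFP library 2 lay below control libraries 1 and 3, while Bam-GFP libraries 1 and 3 lay above every control. In both groups the library with number 2 was the lowest. The mean was 1037 ± 433 CPM with Bam-GFP and 579 ± 218 CPM in the control (SD, n = 3 each).

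The log2 fold change of *cmet* was 0.81 (SE = 0.31, edgeR adjusted p = 0.201), or 1.76-fold with a 95% interval from 1.15 to 2.69. By its unadjusted p of 0.00936 it was number 511 of all 10971 genes. The ratio between libraries of the same number was 0.94, 0.69 and 0.82 on the log2 scale, higher with Bam-GFP in all 3. Over 6335 genes, deviations of same-number libraries had correlations of −0.15, 0.23 and −0.05. The number is thus not shown to pair libraries, and same-number ratios are a description. The adjusted p of *cmet* ranged from 0.0317 to 0.83 over 17 alternatives, among which the single value under 0.05 came from leaving out Bam-GFP library 2 in a fit without the number of the library, where the log2 fold change was 1.15. The log2 fold change was positive in all 17.

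For *cana*, as for *cmet*, the library with number 2 was the lowest of each group. It had 923.7, 533.9 and 842.5 CPM in Bam-GFP libraries 1, 2 and 3, and 533.2, 375.7 and 599.6 CPM in GFP control libraries 1, 2 and 3. Bam-GFP libraries 1 and 3 again lay above every control, and Bam-GFP library 2 fell among them, level with control library 1. Its mean was 767 ± 206 CPM with Bam-GFP and 503 ± 115 CPM in the control (SD, n = 3 each). In the fit, the log2 fold change was 0.60 (SE = 0.31, edgeR adjusted p = 0.552), with a 95% interval from −0.02 to 1.21, and it stayed between 0.37 and 0.81 over the alternatives. Across the 6 libraries, log2 CPM of *cmet* and *cana* had a Pearson r of 0.98, the closest pair among the members. These 6 points share the depth and the number of their libraries, and the value is given as a description. The counting kept reads with a single best place, so that stretches shared by both genes would be missing from either count.

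**Figure D2:**
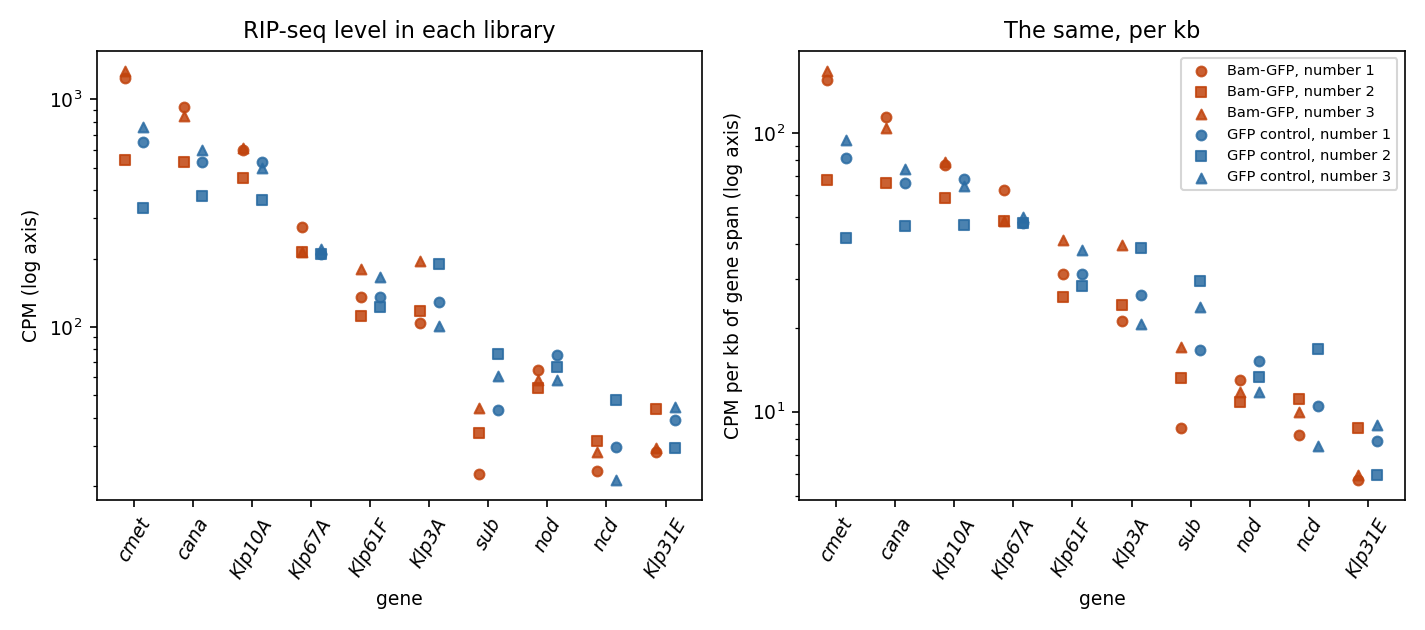
RIP-seq level of each spindle kinesin transcript in the 6 libraries, as CPM (left) and as CPM per kb of gene span (right), both on log axes, with one symbol per library. *cmet* and *cana* lie highest on average, *sub* is lower in Bam-GFP libraries 1 and 2 than in every control library, and the groups overlap for all 10 genes.

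Of the motors known from female meiosis, *sub* had the lowest log2 fold change of the 10. *sub* (*subito*, FBgn0003545, chromosome 2R from 17745500 to 17748078) encodes a motor of the central spindle that is needed to form a bipolar spindle in the oocyte. Its levels were 22.5, 34.1 and 44.2 CPM in Bam-GFP libraries 1, 2 and 3, and 43.1, 76.1 and 61.2 CPM in GFP control libraries 1, 2 and 3. A single pair of libraries kept the groups from being separate, with Bam-GFP library 3 just above control library 1. The mean was 33.6 ± 10.9 CPM with Bam-GFP and 60.1 ± 16.5 CPM in the control (SD, n = 3 each). In the fit, the log2 fold change was −0.85 (SE = 0.45, edgeR adjusted p = 0.561), with a 95% interval from −1.73 to 0.03. Bam-GFP was lower at each of the 3 numbers, with ratios of −0.94, −1.16 and −0.47 on the log2 scale. As above, the number is not shown to pair libraries. The log2 fold change stayed negative over all 17 alternatives, between −1.08 and −0.61.

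*nod* (FBgn0002948, chromosome X from 11580772 to 11585750) encodes a motor on chromosome arms that keeps homologs without a crossover on the meiotic spindle. Its levels were 64.5, 53.8 and 58.7 CPM in Bam-GFP libraries 1, 2 and 3, and 75.5, 66.6 and 58.4 CPM in GFP control libraries 1, 2 and 3. The groups overlapped at the lowest control library, and the 6 values spanned 1.40-fold, a range that only *Klp67A* undercut among the 10. Bam-GFP differed from the control by a log2 fold change of −0.18 (SE = 0.41, edgeR adjusted p = 0.909), with a 95% interval from −0.97 to 0.62. The gene shares 44.6% of its span with *pkm*, which had 3 to 17 counts per library, so that reads in the shared stretch may have gone to neither.

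*ncd* (*non-claret disjunctional*, FBgn0002924, chromosome 3R from 29804290 to 29807127) encodes a motor that moves towards microtubule minus ends and draws the poles of the oocyte spindle together. Its levels were 23.3, 31.4 and 28.3 CPM in Bam-GFP libraries 1, 2 and 3, and 29.7, 47.7 and 21.3 CPM in GFP control libraries 1, 2 and 3. The control libraries held both the highest and the lowest value, and the 3 Bam-GFP libraries lay within their range. For *ncd* the log2 fold change was −0.18 (SE = 0.53, edgeR adjusted p = 0.936), with a 95% interval from −1.22 to 0.85. It turned positive when control library 2 or both libraries with number 2 were left out. *ncd* overlaps its neighbour *ca* over 11.2% of its span, and *ca* had 1962 to 5000 counts per library.

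The next 3 motors set the length and the shape of the spindle in dividing cells. *Klp10A* (FBgn0030268, chromosome X from 11129362 to 11137118) encodes a motor that takes microtubules apart at spindle poles. It had 598.6, 452.6 and 611.1 CPM in Bam-GFP libraries 1, 2 and 3, and 533.2, 362.1 and 500.4 CPM in GFP control libraries 1, 2 and 3. As for *cmet* and *cana*, number 2 was lowest in both groups and each Bam-GFP library lay above the control of its own number. For *Klp10A* the log2 fold change was 0.26 (SE = 0.31, edgeR adjusted p = 0.895), with a 95% interval from −0.35 to 0.87, and it stayed positive over the 17 alternatives, between 0.03 and 0.38.

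*Klp67A* (FBgn0004379, chromosome 3L from 9362636 to 9367046) encodes a motor that limits spindle length at microtubule plus ends. Its levels were 275.1, 213.4 and 212.9 CPM in Bam-GFP libraries 1, 2 and 3, and 210.3, 209.5 and 220.2 CPM in GFP control libraries 1, 2 and 3. The 3 controls lay within 1.05-fold of each other, and only Bam-GFP library 1 lay above all of them. For *Klp67A* the log2 fold change was 0.12 (SE = 0.32, edgeR adjusted p = 0.921), with a 95% interval from −0.50 to 0.74. It turned negative with library size only and when both libraries with number 1 were left out.

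*Klp61F* (FBgn0004378, chromosome 3L from 1241568 to 1245910) encodes the bipolar motor that slides antiparallel microtubules and pushes spindle poles apart. It had 135.6, 111.8 and 179.2 CPM in Bam-GFP libraries 1, 2 and 3, and 135.8, 122.5 and 165.3 CPM in GFP control libraries 1, 2 and 3. The libraries of each number lay close together, and in both groups number 3 was highest and number 2 lowest. For *Klp61F* the log2 fold change was −0.01 (SE = 0.33, edgeR adjusted p = 0.997). The 95% interval ran from −0.66 to 0.65, which bounds a difference at 0.63-fold and 1.57-fold, and the sign changed in 8 of the 17 alternatives.

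The remaining pair, *Klp3A* and *Klp31E*, had no common direction across the libraries. *Klp3A* (FBgn0011606, chromosome X from 2599158 to 2604052) encodes a motor of the spindle midzone that is needed in meiosis and for the union of the pronuclei after fertilization. It had 103.7, 117.9 and 194.3 CPM in Bam-GFP libraries 1, 2 and 3, and 128.5, 189.6 and 101.1 CPM in GFP control libraries 1, 2 and 3. Each group held 1 high library and 2 lower ones, with number 3 high in Bam-GFP and number 2 high in the control. For *Klp3A* the log2 fold change was −0.02 (SE = 0.34, edgeR adjusted p = 0.991), with a 95% interval from −0.70 to 0.65. When both libraries of 1 number were left out in turn, it ran from −0.50 to 0.32, and its sign changed in 8 of the 17 alternatives.

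*Klp31E* (FBgn0032243, chromosome 2L from 10414017 to 10418991) has in the RefSeq table the synonym KIF21A/B, after the vertebrate family it resembles. Its levels were 28.3, 43.6 and 29.5 CPM in Bam-GFP libraries 1, 2 and 3, and 38.9, 29.4 and 44.6 CPM in GFP control libraries 1, 2 and 3. Here number 2 was the highest Bam-GFP library and the lowest control library. For *Klp31E* it was −0.17 (SE = 0.50, edgeR adjusted p = 0.938), with a 95% interval from −1.15 to 0.81.

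Levels between genes were compared as CPM per kb of gene span, introns included. Over the 6 RIP-seq libraries the order was *cmet* (101.3 ± 49.6), *cana* (78.7 ± 25.7), *Klp10A* (65.7 ± 12.1), *Klp67A* (50.7 ± 5.78), *Klp61F* (32.6 ± 5.91), *Klp3A* (28.4 ± 8.59), *sub* (18.2 ± 7.43), *nod* (12.6 ± 1.54), *ncd* (10.7 ± 3.30) and *Klp31E* (7.18 ± 1.51), each as mean CPM per kb ± SD over 6 libraries of both groups. Only *Klp67A* and *Klp61F* were neighbours whose ranges did not overlap, with 47.5 CPM per kb as the lowest value of the former and 41.3 CPM per kb as the highest of the latter. All other neighbours overlapped. *cmet* lay above *cana* in 5 of 6 libraries, and *cana* above *Klp10A* in 4 of 6. Without regard to length, mean CPM of *cmet* was above that of 98.2% of all tested genes, and that of *ncd*, the lowest of the 10, above 61.8%.

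In the sorted germ cells, the authors' mean of normalized counts over all 6 libraries could be read for 8 of the 10 members. This mean mixes *bam*-/- and vas-GFP cells, so that it is a level and not a comparison. *ncd* and *Klp3A* are not among the 6555 genes listed. The paper gives that number for its differentially regulated genes. Absence from the list therefore does not show a lack of detection, and the median of the list covers that selection only. For scale, the list held 6555 genes and the RIP-seq count table held 17737. Whether the members were listed more often than other genes was not tested. The authors' mean was 8083 for *Klp10A*, 3859 for *Klp61F*, 3630 for *cana* and 3532 for *cmet*. It was 2226 for *Klp31E*, 1832 for *Klp67A*, 1378 for *sub* and 554.2 for *nod*, and the median of the whole list was 1357. Per kb of span, the authors' mean was highest for *Klp10A* (1042) and *Klp61F* (888.5) and lowest for *nod* (111.3). *sub* had 534.4 per kb, and *cana*, *Klp31E*, *cmet* and *Klp67A* lay between 415.3 and 450.0 per kb. *Klp31E*, the lowest of the 10 per kb in the RIP-seq libraries, was thus level with *cmet*, the highest there, in the authors' mean of the sorted cells. The experiments were normalized separately and used different RNA, so that this is a view of both orders side by side, with no test.

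In RIP-seq, the median log2 fold change rose with gene span from the class of 1 to 2 kb upward. This was seen among 6259 genes of known span whose lowest library had 10 counts or more. The median was −0.14 in 1737 genes of 2 to 4 kb, 0.04 in 1168 genes of 4 to 8 kb and 0.17 in 635 genes of 8 to 16 kb. Below these classes, it was −0.14 in 468 genes of up to 1 kb and −0.20 in 1534 genes of 1 to 2 kb. The members with the longest spans, *cana* (8.07 kb), *cmet* (7.98 kb) and *Klp10A* (7.76 kb), had the highest log2 fold changes of the 10, and *sub*, with the shortest (2.58 kb), had the lowest. *cmet* and *cana* each lay above the median of its own span class, and *sub* lay below its own. The part of span in these values was not tested.

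**Figure D3:**
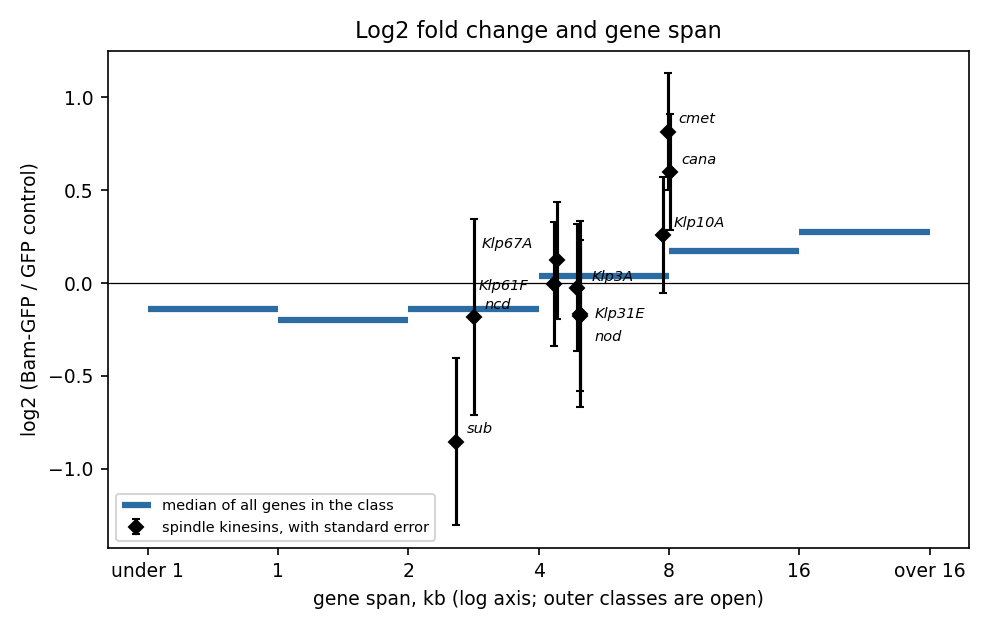
Log2 fold change between Bam-GFP and the GFP control against gene span in kb (log axis). Diamonds are the 10 spindle kinesins with standard errors, and blue bars are medians over genes of a span class whose lowest library had 10 counts or more. The medians rise from −0.14 at 2 to 4 kb to 0.27 in the class over 16 kb, and are −0.14 up to 1 kb and −0.20 at 1 to 2 kb.

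The 14 other kinesin genes are a mixed list, with motors that carry cargo along microtubules but also *pav* of the central spindle. Of these genes, 11 were tested and *Klp59C*, *Klp59D* and *Klp54D* had no count in any library. None passed edgeR's adjusted p of 0.05, 1 was called by DESeq2 and none by limma. Over all 10971 genes, edgeR called 241, DESeq2 408 and limma 233. At an unadjusted p under 0.05, 1 was higher with Bam-GFP and none lower, against 5.54% and 4.03% of all genes. The median log2 fold change of these kinesins was 0.46, with 8 of 11 positive. However, *Kif19A* and *Kif3C* had at most 6 counts in any library, and without this pair the median was 0.56. The higher one was *unc-104*, a motor of synaptic vesicle precursors in neurons. It had 173.2, 102.7 and 159.3 CPM in Bam-GFP libraries 1, 2 and 3, and 81.9, 53.6 and 83.9 CPM in GFP control libraries 1, 2 and 3. Every Bam-GFP library thus lay above every control, with a log2 fold change of 0.98 (SE = 0.35, edgeR adjusted p = 0.149) and an adjusted p between 0.0296 and 0.649 over the alternatives. *Khc*, the heavy chain of conventional kinesin, was next by p, with a log2 fold change of 0.56 (SE = 0.31, edgeR adjusted p = 0.617). *unc-104* spans 21169 bases, and in its span class, over 16 kb, 23.2% of genes were higher at an unadjusted p under 0.05, whereas *Khc* spans 5012 bases, in a class with 7.19%.

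Of 17 spindle genes that encode no kinesin, such as chromosomal passengers and microtubule-binding proteins, all were tested, 10 had a positive log2 fold change and the median was 0.05. None was called by edgeR, DESeq2 or limma, against 241, 408 and 233 of all 10971 genes. At an unadjusted p under 0.05, 2 were higher and 2 lower, against 8.19% and 5.56% of the 6335 genes with 10 counts or more per library. *Incenp*, a scaffold of the Aurora B kinase complex that works with Subito on the oocyte spindle, had 609.0, 116.9 and 149.1 CPM in Bam-GFP libraries 1, 2 and 3 against 134.6, 141.6 and 94.3 CPM in the control. Its log2 fold change of 0.84 (SE = 0.34, edgeR adjusted p = 0.236) rested on Bam-GFP library 1, without which it was 0.11 in a fit without the number of the library. *msps*, a microtubule polymerase, had a log2 fold change of 0.79 (SE = 0.32, edgeR adjusted p = 0.248).

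The lower ones were *mtrm* and *mei-38*. *mtrm* (*matrimony*), an inhibitor of Polo kinase in the oocyte, had 393.2, 325.3 and 283.1 CPM in Bam-GFP libraries 1, 2 and 3 and 512.9, 549.0 and 579.1 CPM in the control, with every Bam-GFP library below every control. Its log2 fold change was −0.72 (SE = 0.31, edgeR adjusted p = 0.329). *mei-38*, a spindle protein of female meiosis, had 27.7, 37.4 and 49.7 CPM in Bam-GFP libraries 1, 2 and 3 and 80.0, 95.9 and 49.4 CPM in the control. It was lower with Bam-GFP at numbers 1 and 2 and level at number 3, with a log2 fold change of −0.97 (SE = 0.43, edgeR adjusted p = 0.36).

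**Figure D4:**
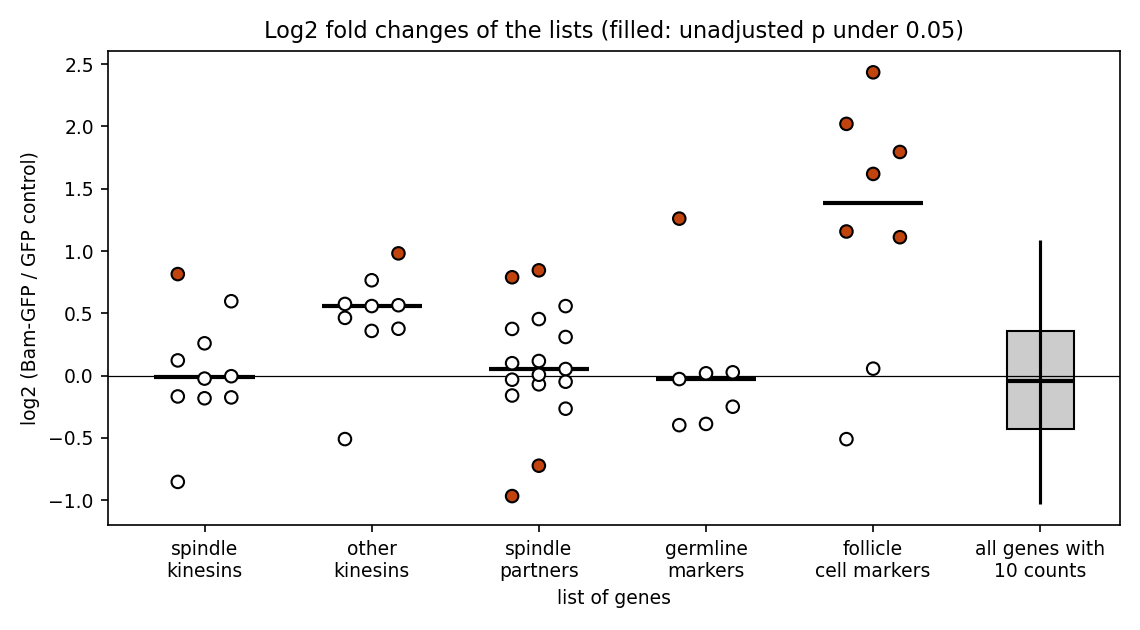
Log2 fold changes between Bam-GFP and the GFP control for the spindle kinesins and 4 other lists, for genes whose lowest library had 10 counts or more. Filled points have an unadjusted p under 0.05, bars are medians of the genes drawn, and the box at the right gives the 5th, 25th, 50th, 75th and 95th percentile over 6335 genes. The spindle kinesins spread around 0, whereas 6 of the 8 follicle cell markers are filled and lie above 1.

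The members varied among themselves over the 6 libraries. *Klp10A* was most like *cmet* (Pearson r of 0.96 of log2 CPM), whereas *ncd* ran against *cmet*, *cana* and *Klp10A*, with r between −0.77 and −0.75. The genes outside the list whose log2 CPM was most like the mean standardised pattern of the 10 members, among 5321 genes whose lowest library had 50 counts or more, were *Xpc* (r of 0.97), *CG10077* (0.96) and *Grip163* (0.96). These values describe 6 libraries that share depth and number, and carry no test. The log2 fold changes of these 3 genes between Bam-GFP and the GFP control were 0.06, 0.11 and 0.14.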

How the data were processed

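For RIP-seq, the authors aligned reads to the Release 6 genome with STAR 2.4.0 and deposited raw counts per gene from HTSeq 0.11.0, with fold change and p-value columns of a paired test. For RNA-seq, the authors deposited a DESeq2 table of 6555 genes only, the number that the paper gives as differentially regulated. Its mean normalized signal over all libraries was used, as the authors' mean, while its fold changes, Wald statistics and p-values hold the study's own comparison and were not used. Depth per RNA-seq library is therefore unknown, and no fit of RNA-seq counts was made.

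Here, 10971 genes with a count of at least 1 somewhere were normalized with TMM and fitted with edgeR 4.0.16 (R 4.3.3), robust quasi-likelihood test, with the number in the library's name as a block because the study paired its samples, and Benjamini-Hochberg adjustment over all genes. Lines that name no gene were left out; ambiguous reads made up 4.51% to 5.03% and reads in no gene 0.872% to 2.84% of reads with a single place. The fit shared nearly all of its error between genes, and standard errors were derived from F. Column headers give the group and a number but equal the titles of RNA-seq samples, and were read as RIP-seq because the table is that of the RIP-seq test. The fit was tested on simulated data. Alternatives were RLE, library size only, totals with alignments to several places, DESeq2 1.42.0, filters, no block, and each number and each library left out. A further alternative, limma-trend 3.58.1 (log2 CPM, prior count 2), was added after the data were seen. Spans come from the RefSeq table of Release 6, because exon lengths were not at hand, a choice also made after the data were seen. Overlapping genes are uncertain in these counts, as the counting by strand is not given in the sources used here.

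Members and lists were chosen with earlier results of these data known. Named were all members, list genes with an unadjusted p under 0.05 (at least the 2 lowest), and the 3 genes most like the members' mean pattern. *ald* is *Mps1* and *nos* is *nanos* in the gene table. No sequences were used here.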

Additional observations from a re-analysis of the deposited data

How the results depend on the processing

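Over all genes, 241 were called at an adjusted p under 0.05, of which 189 were enriched with Bam-GFP. The numbers called and enriched were 195 and 108 with library size only, 408 and 304 with DESeq2, and 135 and 115 with filterByExpr. They were 113 and 100 with a minimum of 10 counts per library, and 153 and 137 with totals that count alignments to several places. They ran from 73 to 165 and from 55 to 121 with a number left out, and from 130 to 480 and from 98 to 330 with a library left out, where the highest values came without Bam-GFP library 2. Library size only moved the median of all genes by −0.22 and the totals with alignments to several places by 0.12. Deviations of libraries with the same number had correlations of −0.15, 0.23 and −0.05 over 6335 genes, which does not show a pairing by number, although the reported fit keeps the number as a block, as the study's test was paired. With no replicate block, 300 genes were called, of which 227 were enriched, and 1 of the spindle partners, *Incenp*, was called, while no other call in the 3 lists of kinesins and partners was changed by the block.

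No member was called in any alternative except *cmet* without Bam-GFP library 2 (1 member, log2 fold change 1.15). The same setting and DESeq2 each called 1 of the other kinesins, *unc-104*. *Incenp* was called also without Bam-GFP library 2, Bam-GFP library 3 or control library 2, so that counts per list ran from 0 to 1. The direction of *cmet*, *cana*, *Klp10A*, *sub* and *nod* held in all 17 alternatives. *Klp61F* reversed to 0.023 with RLE and with DESeq2, to 0.12 with totals that count alignments to several places and to 0.011 with no replicate block. *Klp3A* reversed to 0.0047 with RLE, 0.0046 with DESeq2 and 0.086 with those totals, and *Klp67A* to −0.10 with library size only. With a number left out, *ncd* ran from −0.47 to 0.031, *Klp61F* from −0.065 to 0.058, *Klp67A* from −0.011 to 0.21, *Klp3A* from −0.50 to 0.32 and *Klp31E* from −0.53 to 0.054. With a library left out, *ncd* ran from −0.48 to 0.12, *Klp61F* from −0.19 to 0.16 (reversed values 0.048, 0.14 and 0.16) and *Klp3A* from −0.33 to 0.27 (reversed values from 0.093). With a number left out, 4 to 7 members were positive, 7 of them without number 2. With library size only, the median of the members was −0.24 and 6 spindle partners were positive. The cause was not tested. Levels per exon or coding length, planned for the members, were not run because no such lengths were at hand.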

Other observations

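*pav* (*pavarotti*), a kinesin of the central spindle and of the ring canals between germ cells, was singled out after its values were seen. It had 179.6, 166.4 and 163.8 CPM in Bam-GFP libraries 1, 2 and 3 and 211.9, 219.8 and 303.7 CPM in GFP control libraries 1, 2 and 3. Every Bam-GFP library lay below every control, as for *mtrm*, with a log2 fold change of −0.51 (SE = 0.32, edgeR adjusted p = 0.728). It was 1 of 3 other kinesins with a negative value, and both further ones, *Kif19A* and *Kif3C*, were near 0 CPM.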
